A study of Homo sapiens with 34 samples.

Results

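Poised elements were taken as stretches of chromatin that carried H3K4me1, the mark of enhancers, together with H3K27me3, the mark of Polycomb repression, in KELLY cells. KELLY is an established human neuroblastoma cell line with amplified MYCN. The elements were chosen by measured peaks: on chromosomes 1 to 22 and X the 6 H3K4me1 peak lists were merged, regions with a peak from all 6 lists were kept, and of these an element was poised if it met an H3K27me3 region of all 6 lists and no H3K27ac or H3K4me3 region of all 6 lists. This left 1935 poised elements of 58979 H3K4me1 regions (3.28%). Of 4870 H3K4me1 regions with H3K27me3, 2873 were left out for H3K4me3 and 62 for H3K27ac alone. For comparison, 24789 regions that met no H3K27ac, H3K4me3 or H3K27me3 region of all 6 lists were called primed. The 14151 regions that met such a region of H3K27ac but none of H3K4me3 or H3K27me3 were called active. H3K4me2 was not used to set any of these classes.

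Chromatin immunoprecipitation followed by sequencing had been done in KELLY cells that carried a doxycycline-inducible short hairpin RNA (shRNA) against RUNX1T1, a transcriptional co-repressor. Cells of both groups carried this construct. They were treated with the solvent DMSO or with doxycycline for 72 h, with 3 libraries per treatment for each of 5 histone marks. The doxycycline libraries had a lower calling depth (57.0 to 63.4 M reads) than the DMSO libraries (71.9 to 81.1 M). Calling depth is taken here as the smaller of the ChIP and input read totals after filtering. The ChIP totals alone overlapped, at 57.1 to 84.6 M in doxycycline and 71.9 to 85.2 M in DMSO. No doxycycline library without the shRNA was analysed here, so knockdown, the drug itself and calling depth cannot be told apart. The labels do not say whether the libraries came from separate cultures, and the p-values below measure only the spread between libraries. At the start sites of 9 of 9 neuroblastoma marker genes, among them HAND2 and TH, H3K4me3 and H3K27ac lay in all 6 lists. Of 2 blood markers, PTPRC had neither mark and SPI1 had H3K27ac but no H3K4me3. All 3 epithelial markers had H3K4me3 and H3K27me3 in all 6 lists, and 1 of them, EPCAM, also had H3K27ac in all 6. Of 3 mesenchymal markers, all had H3K4me3 and 2 had H3K27ac in all 6 lists. The start site of RUNX1T1 held H3K4me3 and H3K27ac in all 6 lists and no H3K27me3, but since the shRNA acts on the transcript, peaks there do not check the knockdown.

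H3K4me1 is laid down at enhancers before and during their use, whereas H3K27ac marks those in use. H3K27me3 is written by Polycomb repressive complex 2 and is known for covering the genes of developmental regulators in cells that do not use them. Enhancers with H3K4me1 and H3K27me3 but no H3K27ac are called poised, a state known from embryonic stem cells, in which such elements lie near genes used later in development. H3K4me2 lies between H3K4me1 and H3K4me3 in the number of methyl groups and is found at both enhancers and promoters. In peak lists from many cells, both marks at one place do not show that they lie on the same chromosome copy.

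To show what such elements look like in sequence, the middle 200 bases of 4 of them are printed from hg38, plus strand, in lower case with each CG dinucleotide, the site of DNA methylation, in capitals. The first 3 held H3K4me2 in all 6 lists and were among the members with the strongest H3K27me3. The first lies in the intergenic element chr9:136168555-136183576, 18098 bp from the start site of LHX3, a homeobox gene of motor neurons and the pituitary. The second lies in an intron of NOTCH1, the Notch receptor gene, within chr9:136521581-136536154. The third lies in the intergenic element chr1:1200159-1202001, 3679 bp from TNFRSF18, which encodes a receptor of T cells. They hold 4, 4 and 17 CG dinucleotides.
LHX3 element, chr9:136175966-136176165: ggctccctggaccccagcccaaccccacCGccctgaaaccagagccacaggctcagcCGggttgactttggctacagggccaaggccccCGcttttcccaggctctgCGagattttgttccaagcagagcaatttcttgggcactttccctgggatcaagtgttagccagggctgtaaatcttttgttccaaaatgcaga
NOTCH1 element, chr9:136528768-136528967: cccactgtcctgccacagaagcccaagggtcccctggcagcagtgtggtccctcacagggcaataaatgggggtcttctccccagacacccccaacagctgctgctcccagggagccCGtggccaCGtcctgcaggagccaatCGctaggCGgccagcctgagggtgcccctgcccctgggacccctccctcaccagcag
TNFRSF18 element, chr1:1200981-1201180: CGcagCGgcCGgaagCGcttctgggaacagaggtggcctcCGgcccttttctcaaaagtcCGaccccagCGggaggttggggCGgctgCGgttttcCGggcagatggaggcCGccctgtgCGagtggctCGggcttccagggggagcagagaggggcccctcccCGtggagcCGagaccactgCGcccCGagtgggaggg

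The other printed member had strong H3K27me3 but H3K4me2 in none of the 6 lists. It is the intergenic element chr10:101242033-101243371, 12570 bp from LBX1, a homeobox gene of muscle and spinal cord, with 1 CG dinucleotide in its middle 200 bases.
LBX1 element, chr10:101242603-101242802: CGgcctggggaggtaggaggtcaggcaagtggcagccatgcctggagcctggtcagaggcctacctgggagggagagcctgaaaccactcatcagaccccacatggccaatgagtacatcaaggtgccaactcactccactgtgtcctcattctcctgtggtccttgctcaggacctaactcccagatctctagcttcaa

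Poised elements were short and mostly buried in H3K27me3. Their median width was 2062 bp, with a range from 435 to 22896 bp, against 2344 bp in primed and 4290 bp in active elements. Of the members, 1386 (71.6%) lay wholly inside an H3K27me3 region and 1611 (83.3%) had at least 50% of their bases in one. The H3K27me3 regions that held a member had a median length of 24.4 kb, compared with 10.2 kb over all 16369. Of 1453 such regions, 311 held 2 or more members, and together these held 842 of the 1935 members. A longer region has more room for elements, and the part of region length in these values was not tested.

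The rule has thresholds, and members lie close to them. The smallest overlap with H3K27me3 was 3 bp, and 24 members shared under 100 bp. Of the members, 26 had H3K27ac in 5 or more lists and 197 had H3K4me3 in 5 or more. Just outside, 128 H3K4me1 regions met an H3K27me3 region of 5 lists in place of 6. Averaged over the 6 libraries, 51.8% of these had an H3K4me2 peak, compared with 59.8% of the members.

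The H3K27ac and H3K4me3 lists were read by the rule, so their levels are given as a description only. H3K27ac was found in none of the 6 lists at 1689 members (87.3%) and H3K4me3 in none at 1269 (65.6%). Both were missing from all lists at 1106 members (57.2%). In single libraries, the percent of members with an H3K4me3 peak was 20.9, 22.4 and 11.1 in DMSO and 26.4, 23.3 and 8.17 in doxycycline. The libraries of replicate 3 were lowest in both treatments. For H3K27ac the values were 7.18, 5.27 and 3.77% in DMSO and 6.82, 4.39 and 3.51% in doxycycline, and the groups overlap for both marks.

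H3K4me2, which the rule did not use, was found at most poised elements in some libraries and at few in others. In DMSO, 80.5, 46.0 and 29.8% of the 1935 members had an H3K4me2 peak in replicates 1, 2 and 3, with a mean of 52.1% ± 25.9 (SD, n = 3). In doxycycline the values were 91.3, 51.7 and 59.5%, with a mean of 67.5% ± 20.9 (SD, n = 3). Replicate 1 was highest in both treatments. Its lists were also the longest, with 88427 and 86420 H3K4me2 peaks, whereas the other 4 held 51860 to 61379. Over all 6 lists, 428 members (22.1%) had H3K4me2 in every list and 91 (4.70%) in none.

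Compared with primed elements, poised elements carried H3K4me2 more often in 6 of 6 libraries. The percent of primed elements with a peak was 68.9, 22.0 and 17.7 in DMSO and 52.2, 16.9 and 24.2 in doxycycline. The mean difference, poised minus primed, was 26.2 percentage points, from 11.6 in DMSO replicate 1 to 39.1 in doxycycline replicate 1. The exact two-sided sign-flip permutation test over the 6 libraries gave p = 0.03125, the smallest it can give, and 0.0625 after Benjamini-Hochberg adjustment over both class comparisons, which does not pass 0.05. Within elements of like GC content the differences were 11.0 points below 45% GC, 15.1 points between 45 and 55% and 24.6 points at 55% or more, again above 0 in each of the 6 libraries (a split chosen after seeing the data). H3K4me3 in at least 1 list also differed, at 34.4% of poised and 4.59% of primed elements. Without such elements, H3K4me2 was present on average at 37.5% of poised and 33.6% of primed elements in DMSO. In doxycycline these values were 52.8 and 28.1%. The part of H3K4me3 was not tested.

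Active elements had H3K4me2 in 92.9, 67.5 and 57.6% of cases in DMSO and in 83.7, 61.1 and 68.4% in doxycycline. Poised elements were 12.1 points lower on average, lower in 5 of 6 libraries and higher in doxycycline replicate 1. The exact sign-flip permutation test gave p = 0.0625, and 0.0625 after adjustment. Active elements are wider, and among elements of 1 to 3 kb the difference was 1.16 points in the opposite direction. With a peak required to cover at least 50% of an element it was 9.45 points, also in favour of poised elements. Within the lower GC strata the difference from active elements was -29.96 points under 45% GC and -20.8 points between 45 and 55% (exact sign-flip permutation test, adjusted p = 0.03125 for each). At 55% GC or more, where 976 (50.4%) of the poised elements lay, it was only -2.85 points (exact sign-flip permutation test, p = 0.5). The strata were chosen after seeing the data.

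**Figure D1:**
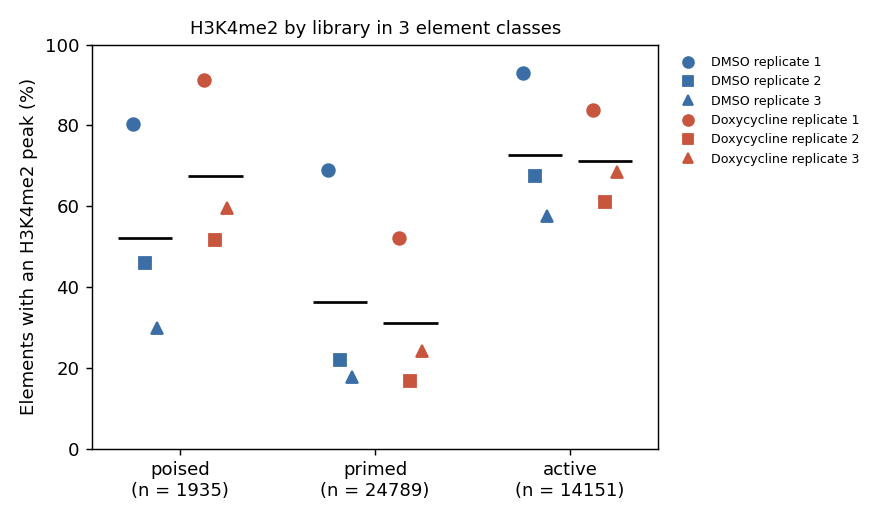
Percent of elements with an H3K4me2 peak (y axis) in poised, primed and active elements (x axis), with a point for each library, blue for DMSO and red for doxycycline, a shape for each replicate number and a black bar for the mean of 3 libraries. In each of the 6 libraries the poised point lies above the primed point, and replicate 1 is highest in every class.

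Taken unpaired, the share of poised elements with H3K4me2 did not differ between treatments beyond the spread of libraries. The difference, doxycycline minus DMSO, was 15.4 points, higher in 3 of 3 same-numbered pairs (exact two-sided permutation test, p = 0.4, adjusted over the 5 marks p = 0.8; 3 against 3 libraries cannot go below 0.1). DMSO replicate 1 lay above 2 of the 3 doxycycline libraries. Without the third DMSO library the difference was 4.24 points, and without the first doxycycline library 3.51 points. With replicate numbers as blocks the exact sign-flip permutation test gave p = 0.25. That is the smallest that 3 pairs can give, so the block cannot decide the question.

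Set against primed elements in the same library, the treatments did not overlap. The excess of H3K4me2 at poised over primed elements was 11.6, 24.0 and 12.0 points in DMSO and 39.1, 34.9 and 35.3 points in doxycycline. The lowest doxycycline library thus lay above the highest DMSO library. The difference between treatments was 20.5 points, with p = 0.1 by exact permutation, the smallest that 3 against 3 libraries can give. This comparison was chosen after seeing the data. At a q of 0.001 or less it was 12.5 points (exact permutation test, p = 0.2), and with peaks covering at least 50% of an element 11.8 points (exact permutation test, p = 0.4), and in both the treatments overlapped. Element by element, 873 poised elements (45.1%) had H3K4me2 in more doxycycline than DMSO lists and 182 (9.41%) in fewer. Of the primed elements, 20.7% had it in more doxycycline lists and 33.0% in fewer. Primed elements are not a fixed reference. In at least 1 list 70.5% of them held H3K27ac, and a mean of 43.7% held it in DMSO libraries against 27.6% in doxycycline libraries. The part of this change in the excess was not tested.

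H3K4me1 showed a like arrangement in how much of each element its peaks covered. The rule requires an H3K4me1 peak in every list but not its length, and because it read these lists the cover is given with no test. Peaks covered 68.9, 57.8 and 48.7% of the bases of poised elements in DMSO and 80.5, 67.5 and 60.8% in doxycycline, higher in 3 of 3 same-numbered pairs. In primed elements the cover was 79.0, 58.3 and 62.7% in DMSO and 69.5, 50.3 and 54.2% in doxycycline, lower in 3 of 3 pairs. Unpaired, the treatments overlapped in both classes. Poised minus primed was -10.1, -0.49 and -14.0 points in DMSO and 10.9, 17.2 and 6.62 points in doxycycline. The doxycycline lists were thus covering less of primed but more of poised elements.

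**Figure D2:**
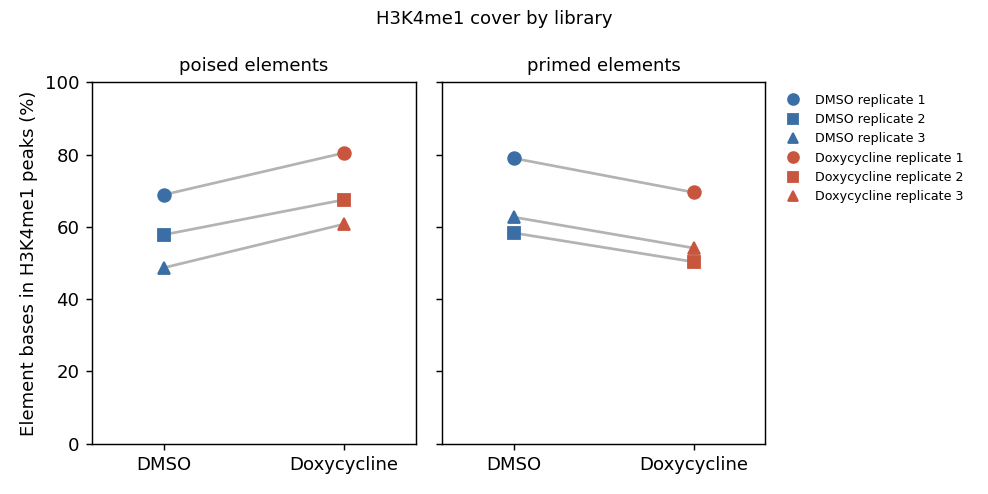
Percent of element bases inside H3K4me1 peaks (y axis) for DMSO and doxycycline (x axis) in poised elements on the left and primed elements on the right, with a point for each library and grey lines joining libraries with the same replicate number. All 3 lines go up for poised elements and all 3 go down for primed elements.

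GC content differed between the element classes and between the H3K4me2 lists. Median GC was 55.1% in poised, 44.5% in primed and 46.6% in active elements. The H3K4me2 peaks of doxycycline replicate 1 had a median GC of 54.6%, against 50.3% for DMSO replicate 1, while the other 4 lists lay between 52.6 and 53.7%. Among elements of 55% GC or more, the H3K4me2 excess was 19.5 points in DMSO and 29.8 points in doxycycline on average. The groups overlap there, since doxycycline replicate 1 had an excess of only 10.5 points. Below 45% GC the excess was 2.47 and 19.6 points, and between 45 and 55% it was 10.4 and 19.9 points, with no overlap between treatments in either. The H3K4me1 excess did not overlap between treatments in any of the 3 strata. Whether GC bias of the libraries has a part in these differences was not tested.

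**Figure D3:**
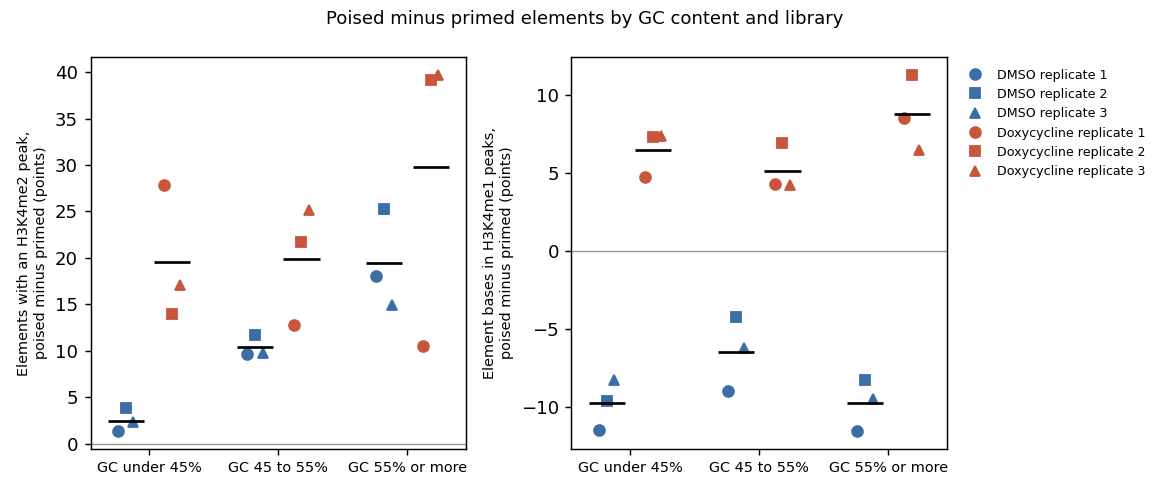
Poised minus primed elements in percentage points (y axes) within 3 ranges of GC content (x axes), for the percent of elements with an H3K4me2 peak on the left and the percent of element bases in H3K4me1 peaks on the right. Points are libraries and black bars are means of 3. On the left the treatments overlap only at 55% GC or more, through doxycycline replicate 1, and on the right all 9 DMSO points lie below 0 and all 9 doxycycline points above 0.

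The cover of poised elements by H3K27me3 peaks differed between libraries along with their estimated fragment length. It was 73.4, 53.0 and 47.5% of bases in DMSO and 78.4, 72.2 and 50.8% in doxycycline. The 3 libraries above 70% had estimated fragment lengths of 256 to 280 bp, and the others of 105 to 112 bp. Longer-fragment libraries were 1 of 3 in DMSO and 2 of 3 in doxycycline, and their part in the result was not tested. The treatment difference of 9.16 points is a description, since the rule read these lists. It was 2.20 points with members and cover taken from the longer-fragment libraries alone.

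Few poised elements separated the treatments, meaning a peak in 3 of 3 libraries of one treatment and in 0 of 3 of the other. For H3K4me2, 14 members (0.724%) gained a peak in doxycycline in this sense and 0 lost it, compared with 0.109% and 0.339% of all H3K4me1 regions. Among primed elements the shares were 0.157% and 0.557%. Regions near each of the developmental genes SOX8, TLX1 and MEF2C were among the 14. The 2 with the strongest peaks lay in chr22:36877203-36880202, 5066 bp from NCF4, a subunit of the phagocyte oxidase, and in an intron of TMEM255B at chr13:113773766-113778246. Without replicate 1, 175 members gained H3K4me2 and 12 lost it. Without replicate 2 they were 67 and 7, and without replicate 3 they were 58 and 3. Leaving out a number also asks for fewer libraries and rebuilds the members, and these effects cannot be told apart.

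H3K27ac was gained at 16 members (0.827%) and lost at 9 (0.465%), against 0.42% and 2.5% of all H3K4me1 regions. Of all regions, 47.5% held H3K27ac in every list and so could not separate the treatments. Among primed elements it was gained at 0.811%, near the share of members, and lost at 5.61%. The rule bars H3K27ac in all 6 lists, so the members that gained or lost it lie at its edge. The strongest gains were a pair of elements of RBFOX3, which encodes the neuronal splicing factor NeuN, at chr17:79156649-79169118 in an intron and at chr17:79668731-79672135 upstream. The strongest losses lay in an intron of RNF43, a ubiquitin ligase that curbs WNT signalling, at chr17:58362522-58367501, and 113393 bp from ADRA2C, an adrenergic receptor gene, at chr4:3879778-3881059. H3K4me3 was gained at 21 members (1.09%) and lost at 15 (0.775%), against 0.107% and 0.246% of all regions. Among primed elements the shares were 0.0403% and 0.19%. Regions with H3K4me3 in no list or in every list could not separate the treatments. Of all regions 59.9% held it in no list and 30.5% in every list. Of primed elements 95.4% held it in no list, against 65.6% of members, so these shares are not on an equal footing. Gains at members were led by elements near CFAP74 and CCDC42, and losses by elements near MICALL2 and GRIN3B, a glutamate receptor subunit. A single element has only 3 values against 3 and was not tested. With 1 replicate number left out the counts ranged from 16 to 31 for H3K27ac gains, 13 to 29 for H3K27ac losses, 31 to 94 for H3K4me3 gains and 35 to 44 for H3K4me3 losses.

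Poised elements lay in CpG-rich sequence. Their mean ratio of observed to expected CpG was 0.379, compared with 0.212 in primed and 0.226 in active elements, and 265 of them (13.7%) exceeded 0.6, against 18 primed and 10 active elements. To see whether this held set by set, the classes were rebuilt within each of the 6 sets of libraries that share a treatment and number. The sets share many elements and come from a single cell line, and the ratio of a given stretch is fixed by its sequence. The p-value below thus measures only agreement between overlapping sets. The mean ratio in poised elements was 0.355, 0.404 and 0.327 in the DMSO sets and 0.341, 0.367 and 0.394 in the doxycycline sets. In primed elements it was 0.193 to 0.208, so the ranges were far apart. The difference was 0.163 against primed and 0.145 against active elements (exact sign-flip permutation test over 6 sets, p = 0.03125 for each and 0.03125 after adjustment, the smallest it can give). This call too was lost in the smaller designs of 3 or 4 sets, which cannot reach 0.05.

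H3K4me2 followed CpG content within the poised class. The 91 members with no H3K4me2 had a median CpG ratio of 0.214 and a median GC of 46.6%, and 4.40% lay within 1 kb of a start site. In the 428 members with H3K4me2 in all 6 lists these values were 0.42, 57.1% and 32.0%. These 428 were also wider, with a median of 2393.5 bp against 1430 bp, and the part of width was not tested. Their H3K4me1 peaks also ranked higher within the lists by −log10 q, at a median percentile of 79.05 against 40.2. As a description of sequence, 1 kb windows about the element centres were searched on both strands for short motifs. TAATTA, the core bound by many homeodomain proteins, was present in 18.2% of poised, 34.1% of primed and 28.2% of active elements. AGATAA, bound by GATA factors, was present in 33.9, 56.7 and 47.2%, and CATCTG, an E-box, in 56.6, 60.3 and 60.4%. CGNCG, a plain measure of CpG density, was present in 968 of the 1935 poised elements, in 14.2% of primed and in 17.6% of active elements. The A and T rich motifs were thus scarcer in the class with the highest GC content.

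Poised elements lay closer to start sites than primed and active elements. The median distance to the start site of a protein-coding gene was 9230 bp, compared with 33881 bp for primed, 24166 bp for active and 13366 bp for all H3K4me1 regions. A start site lay within 1 kb of 475 members (24.5%), against 7.30% of primed, 13.3% of active and 29.97% of all H3K4me1 regions, although elements with H3K4me3 in all 6 lists had been left out. Element centres fell between genes for 50.2% of members, in introns for 33.9%, in coding exons for 4.86%, in untranslated regions for 5.17% and in other exons for 5.89%. Away from start sites, H3K4me2 was present at 77.4, 40.6 and 27.7% of the 1460 remaining members in DMSO and at 89.2, 46.8 and 54.4% in doxycycline. At the 1269 members with no H3K4me3 in any list it was present at 70.7, 25.9 and 15.8% in DMSO and at 86.7, 31.8 and 39.95% in doxycycline, again with overlapping groups.

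They were unevenly spread over the genome. On chromosome 19, 10.5% of H3K4me1 regions were poised, followed by chromosome 22 (7.99%), chromosome 20 (6.76%) and chromosome 16 (6.74%). The lowest shares were on chromosome 4 (1.13%), chromosome 3 (1.21%) and chromosome 6 (1.38%). Members lay within 5 Mb of a chromosome end in 31.0% of cases, compared with 8.25% of primed and 11.1% of active elements. A further mark of position was nearness to gaps of the assembly inside chromosomes: 7.24% of members lay within 1 Mb of one, against 2.66% of primed elements. One example with H3K4me2 in all 6 lists, chr21:8427759-8428889, had a mean H3K4me1 fold enrichment of only 1.67 and lay 2092664 bp from its nearest start site, that of TPTE.

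**Figure D4:**
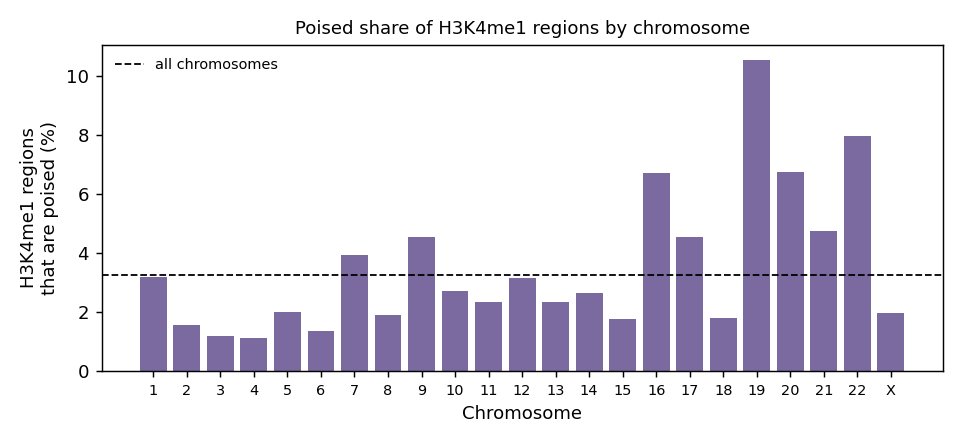
Percent of H3K4me1 regions of all 6 lists that were poised (y axis) on each chromosome (x axis), with a dashed line at 3.28% for all chromosomes together. Chromosomes 19, 22, 20 and 16 stand highest and chromosomes 4 and 3 lowest.

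Developmental transcription factor genes were the nearest genes more often for poised elements than for the other classes. Of a list of 503 genes set by name patterns for such factors, 133 (26.4%) were nearest to at least 1 member. Of 19962 protein-coding genes, 1284 (6.43%) were. Together 226 members (11.7%) had one as their nearest gene, against 5.52% of primed, 4.78% of active and 5.07% of all H3K4me1 regions. With classes rebuilt in each of the 6 sets, the share in poised elements was 9.65, 11.9 and 9.95% in the DMSO sets and 9.63, 10.7 and 11.9% in the doxycycline sets. Primed elements ranged from 4.85 to 5.46% and active elements from 4.53 to 5.01%. The difference was 5.48 points against primed and 5.94 points against active elements (exact sign-flip permutation test over 6 sets, p = 0.03125 for each and 0.03125 after adjustment). The call was lost with a replicate block (exact permutation test, p = 0.25), with the longer-fragment H3K27me3 sets alone (exact, p = 0.25) and with any replicate number left out (exact, p = 0.125), and none of these smaller designs can reach 0.05. The 6 sets share many elements and come from a single cell line.

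Homeobox genes made up the largest group. In the list of 157 genes for homeobox genes outside the HOX clusters, 46 were nearest to 86 members. The list was set by name patterns and also holds ENC1, which is not a homeobox gene. UNCX, which patterns the somites, had 7, LMX1B, a gene of limb and midbrain neurons, had 5, and LHX3 had 4. In DMSO 68, 46 and 33 of these 86 members held H3K4me2, and in doxycycline 80, 59 and 65. The groups overlap, because DMSO replicate 1 exceeded 2 doxycycline libraries. Of the 86, 45 (52.3%) had H3K4me2 in more doxycycline lists and 1 (1.16%) in fewer, against 45.1% and 9.41% of all members.

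Of the 39 HOX genes, which set position along the body axis, 11 were nearest to 13 members. These were singled out after their values were seen. H3K4me2 was present at 9, 6 and 2 of the 13 in DMSO and at 13, 10 and 10 in doxycycline, so the treatments did not overlap, whereas over all 1935 members they did (80.5, 46.0 and 29.8% in DMSO and 91.3, 51.7 and 59.5% in doxycycline). Of the 13, 10 had H3K4me2 in more doxycycline than DMSO lists, compared with 45.1% of all members. Whether HOX members differ from the other members was not tested. For the 8 members at HOXA genes the counts were 5, 3 and 1 in DMSO and 8, 7 and 6 in doxycycline. They lay in a single H3K27me3 region of 402.9 kb at chr7:27017679-27420626 and had CpG ratios from 0.596 to 0.883. The HOXA3 element chr7:27113530-27114443, the HOXA9 element chr7:27168379-27170331 and an element beside HOXA11 at chr7:27187650-27189379 each had H3K4me2 in 0 of 3 DMSO and 2 of 3 doxycycline libraries. The HOXA6 element chr7:27150487-27152425 had it in all 6. The elements at HOXC genes showed it in 3, 2 and 1 of 4 in DMSO and in 4, 3 and 3 of 4 in doxycycline. Neighbouring elements share their region and libraries and are not independent.

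The other families of developmental factors were represented as follows. Of 9 PAX genes, regulators of organ and neural development, 5 were nearest to 10 members: PAX2 with 3, PAX3, PAX6 and PAX7 with 2 each, and PAX4 with 1. These 10 had H3K4me2 in 9, 7 and 3 cases in DMSO and in 10, 7 and 10 in doxycycline. Of 51 forkhead genes 12 were nearest to 19 members, led by FOXC1 with 3. Of 17 T-box genes 5 were nearest to 7 members, led by the heart and limb gene TBX5 with 3. Among basic helix-loop-helix genes 12 of 62 were nearest to 23 members, of which BHLHE23 had 7. Of 19 SOX genes 4 were nearest to 6 members, SOX13 and SOX21 with 2 each. Among zinc finger regulators 18 of 81 were nearest to 33 members, with 6 at PRDM16, 5 at WT1 and 4 at GATA5. Of 68 other factors 20 were nearest to 29 members, led by IRF8, NFIX and MEF2C with 3 each.

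Developmental signalling genes were nearest to members less often, at 28 of 231 genes (12.1%). Their 47 members were 2.43% of all poised elements, whereas 2.95% of primed elements lay nearest to such a gene. The NOTCH1 receptor alone accounted for 8 members, and no other of 18 Hedgehog and Notch genes had one. For the 8, which had a mean GC of 63.5%, H3K4me2 was present at 6, 6 and 4 in DMSO and at 8, 5 and 6 in doxycycline. In the WNT pathway 9 of 50 genes were nearest to 12 members, among them the ligands WNT5B and WNT7A and the receptor FZD9 with 2 each. BMP7, a ligand of the TGF-beta and BMP pathway, had 4 of the 10 members of that list, between 83.2 and 246.6 kb away, while 7 of 50 of its genes were represented. Of 79 axon guidance genes 8 were nearest to 14 members, 5 of them at SEMA6B, which encodes a semaphorin. In the FGF pathway 3 of 34 genes had 1 member each.

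Membrane and matrix genes on the lists were nearest to 51 members, 2.64% of poised elements against 4.05% of primed elements. Of 95 potassium channel genes 13 were nearest to 18 members, among them 2 at KCNT1. Of 116 neurotransmitter receptor genes 13 were nearest to 18 members, led by the nicotinic receptor subunit CHRNA4 with 4 and the GABA receptor subunit GABBR2 with 3. Of these 18 members, 9 had H3K4me2 in all 6 lists, compared with 22.1% of all members. Collagens were represented by 7 of 44 genes, and cadherins and protocadherins by 4 of 88.

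No gene of the adrenergic circuit, the set of factors that define this type of neuroblastoma cell, was nearest to a member, although 109 primed elements lay nearest to one of the 16 genes. Of 26 genes of the mesenchymal state, 3 were nearest to 6 members: MEOX1, a homeobox gene, with 3, RUNX1, a blood development factor, with 2, and WWTR1, a co-activator of the Hippo pathway, with 1. None of the 6 held H3K4me2 in all lists. Ribosomal protein genes had no member among 84 genes, and olfactory receptor genes had 9 of 415. Of the 16 olfactory receptor members 7 were assigned to OR11H1, which lies near the centromere of chromosome 22, and lay up to 4506.3 kb away, so that assignment to a nearest gene means little there.

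**Figure D5:**
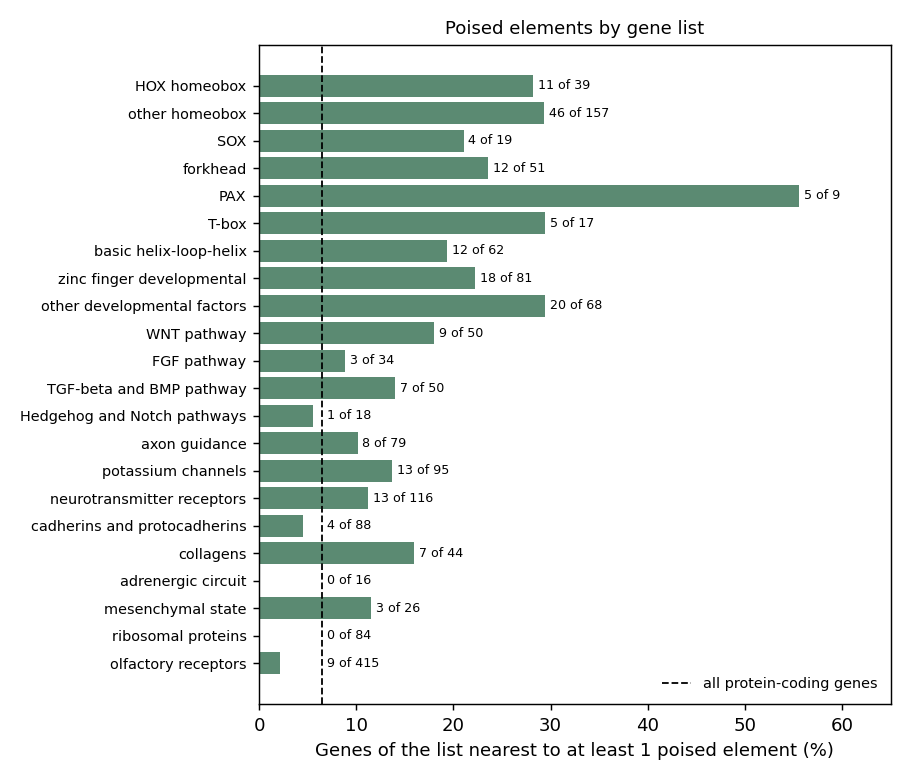
Percent of the genes of each list that were nearest to at least 1 poised element (x axis), with the number of genes written beside each bar and a dashed line at 6.43% for all protein-coding genes. All 9 lists of developmental transcription factors, from HOX homeobox to other developmental factors, lie above the line, and the adrenergic circuit and ribosomal proteins stand at 0.

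Some genes had many members, and those with the most were not all developmental factors. Of the 1284 genes, 923 (71.9%) had 1 member and 56 had 4 or more. MN1, which encodes a transcriptional co-regulator, had 21, all distal, at 12.5 to 502.0 kb from its start sites. RBFOX3 had 20 with 102.7 kb of sequence, and BRD1, a scaffold of a histone acetyltransferase complex, had 17. H3K4me2 was present at 14, 9 and 6 of the MN1 members in DMSO and at 21, 12 and 16 in doxycycline. At the RBFOX3 members it was present at 15, 9 and 5 in DMSO and at 19, 13 and 12 in doxycycline. At the BRD1 members the counts were 12, 8 and 7 in DMSO and 17, 12 and 11 in doxycycline. In all 3 the highest DMSO library was replicate 1, which exceeded at least 1 doxycycline library.

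MICALL2, a regulator of cell junctions, CACNA1I, a calcium channel gene, and RNF220, a ubiquitin ligase gene, had 9 members each, and NTSR1, the neurotensin receptor gene, had 8. SLCO4A1, a transporter gene, and CYTH4, which encodes an exchange factor, had 7 each. CBFA2T3, a gene of the same co-repressor family as RUNX1T1, also had 7, and these were all of its H3K4me1 regions. They covered 42.3 kb, and 4 of them lay within 1 kb of a start site. Their H3K27me3 peaks ranked at a mean percentile of 99.3 within the lists by −log10 q. H3K4me2 was present at 7, 4 and 2 of these in DMSO and at 7, 6 and 6 in doxycycline.

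The densest H3K27me3 region held 16 members over 280.8 kb at chr7:1178390-1459194, of which 7 were nearest to UNCX and 9 to MICALL2. H3K4me2 was present at 12, 10 and 4 of them in DMSO and at 16, 9 and 10 in doxycycline. Within this region the members differed among themselves. The elements chr7:1224221-1234094 and chr7:1241704-1250093, both by UNCX, held H3K4me2 in all 6 lists, whereas chr7:1209272-1211688 held it in 1 doxycycline list alone. The MICALL2 element chr7:1385130-1387258 had it in 0 of 3 DMSO and 3 of 3 doxycycline libraries. A region of 336.1 kb at chr16:971096-1307218, around SOX8 and SSTR5, held 13 members, none with H3K4me2 in all lists. The next was a region of 10 members at RBFOX3, at chr17:79319447-79705242.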

How the data were processed

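Peak lists of 5 histone marks were used, 30 in all, from 34 samples of which 4 were inputs. The authors aligned reads to hg38 with Bowtie2, kept mapping quality 30 or more and called peaks per library against input with MACS2 2.1.1.20160309. The file headers give broad calling (q 0.05, linked at q 0.1) for H3K4me1, H3K27me3 and H3K27ac and narrow calling at p 1e-5 for H3K4me2 and H3K4me3. Inputs of replicates 1 and 3 had equal read totals. For each peak the authors deposited the pileup, a coverage signal, its p-value and q-value on a −log10 scale, and its fold enrichment, the ratio of ChIP to local input. These depend on depth and served only to rank, filter or describe peaks. Shares of elements with a peak likewise depend on depth and on where each list stops.

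Lists were merged at 1 bp of shared sequence and compared with GENCODE release 44 in python 3.11.15 with numpy 2.4.6 and pandas 2.3.3. bedtools 2.31.1 gave the same 1935 members, and the functions were tested on simulated data. Tests were exact: 64 sign flips over 6 libraries or sets, and 20 assignments of 3 of 6 libraries, adjusted by Benjamini-Hochberg, with calls at 0.05. Across elements, deviations of same-numbered libraries did not correlate at over 0.1 in every pair, so numbers were not used as pairs. That check reads patterns across elements and does not see the level of a whole library. For H3K4me2 the level of replicate 1 was highest in both treatments. Alternatives were a stricter q, lists of equal length, each replicate or library left out, distal elements, 5 Mb either side of MYCN left out, longer-fragment H3K27me3 libraries, elements of 1 to 3 kb and peaks covering 50%. Those within GC strata were added after seeing the data. The members, gene lists and tests were chosen with earlier results of these data known. Named were the 12 genes with most members, the 3 with most in each list, every adrenergic or mesenchymal gene with a member, the strongest members that separated the treatments, and the members with the strongest H3K27me3 among those with H3K4me2 in all or in no list. HOX elements and those of the MICALL2 region were singled out after their values were seen, as were PAX3, PAX4 and the genes named for SOX8, TLX1 and MEF2C. Some genes and sequences that this rule names are not reported here.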

Additional observations from a re-analysis of the deposited data

Results flagged for a closer look

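H3K4me1 cover differed between element classes under the same contrast. It was 11.1 points higher in doxycycline than in DMSO in poised elements and -8.66 points, that is lower, in primed elements, and every same-numbered pair of libraries went with its class. It was flagged by these pairs, although the tests did not use numbers as pairs. Unpaired, the treatments overlapped within each class. The difference between the classes was 19.8 points, and it is given as a description with no test result, since the rule read these lists. It was 16.2 points below 45% GC, 11.6 points between 45 and 55% and 18.5 points at 55% GC or more. The shallower calling of the doxycycline libraries goes with the treatment in both classes.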

How the results depend on the processing

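The number of members depended most on how peaks were counted. It was 290 at a q of 0.001 or less and 1150 with lists of equal length. With the same settings the difference in H3K27ac between treatments changed sign, to 1.15 and 1.10 points, and it was 0.0913 points among distal members. It ranged from -1.46 to 0.388 points when libraries or replicate numbers were left out, and that in H3K4me3 from -2.42 to 6.68 points. H3K4me2 at poised minus primed elements passed after adjustment with peaks covering at least 50% (13.2 points), below 45% GC (11.0) and between 45 and 55% GC (15.1). Its unadjusted p by the exact sign-flip permutation test was 0.03125 there, as in the main setting. The adjusted value fell because the comparison with active elements, adjusted along with it, also gave 0.03125. Poised minus active elements gave 9.45 points with peaks covering at least 50%, 1.16 points among elements of 1 to 3 kb, and -30.0 and -20.8 points, both past the threshold, in the lower GC strata. At 55% GC or more that difference was -2.85 points (exact sign-flip permutation test, p = 0.5). The cause of the changes in the size and sign of these differences was not tested.

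Separating members at a q of 0.001 or less numbered 0 for H3K4me2 gains, 5 for H3K27ac gains, 1 for H3K27ac losses, 4 for H3K4me3 gains and 3 for H3K4me3 losses, among fewer members. With lists of equal length there were 48 H3K4me2 gains, 2 H3K4me2 losses and 9 H3K4me3 losses, and among distal members 5 H3K27ac and 9 H3K4me3 losses. Without 1 replicate number the ranges were 58 to 175 for H3K4me2 gains, 3 to 12 for H3K4me2 losses, 16 to 31 and 13 to 29 for H3K27ac gains and losses, and 31 to 94 and 35 to 44 for H3K4me3 gains and losses.

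Developmental factor shares and CpG ratios kept their direction under all alternatives run, and lost the call only where the design cannot reach 0.05. With a replicate block, over 3 numbers, the differences were 5.48 and 5.94 points and 0.163 and 0.145 against primed and active elements, with exact permutation p = 0.25. With the longer-fragment H3K27me3 libraries they were 4.89 and 5.44 points and 0.157 and 0.134. Without 1 replicate number they were 5.25 to 5.87 and 5.56 to 6.38 points, and 0.155 to 0.167 and 0.135 to 0.154. The labels share replicate numbers between treatments, but for no mark did the deviations of same-numbered libraries correlate at over 0.1 in every pair. For H3K4me1 (0.0656, 0.115 and 0.142) and H3K4me3 (0.102, 0.0915 and 0.197) all 3 pairs were positive. For H3K27me3 the values were 0.491, -0.220 and 0.433. Such correlations across elements do not see a level shared by whole libraries. The replicate block ended no other call. The 50% setting has no meaning for the base cover of H3K4me1 and H3K27me3 and was not run there. Shares of elements with a peak are limited by calling depth, which no alternative equalised in reads.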
